A study of Mus musculus with 12 samples.

Results

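Adipokines and batokines are the proteins through which fat signals to other tissues, and 9 of their genes were followed in iWAT, the inguinal white fat pad in which beige adipocytes form upon cold. The genes were listed by name, as Adipoq, Lep, Retn, Apln, Nrg4, Fgf21, Metrnl, Bmp8b and Gdf15, and all 9 were found among the 23420 genes of the count table. All 9 also passed the filter on low counts, which kept 15306 genes, although Fgf21 and Bmp8b passed it only through the cold groups. RNA was sequenced from male C57BL/6 mice of 10 weeks, 3 in each of 4 groups. All mice carried loxP-flanked HIF2a alleles. WT mice had no Cre, whereas the HIF2α AKO groups also had Adipoq-Cre, so that the presence of Cre and the loss of HIF2α cannot be told apart. Adipoq-Cre is driven by the regulatory sequence of Adipoq and acts in adipocytes, so the other cells of the pad are not targeted. TN mice were held at the thermoneutral temperature of 30 °C for 1 week, and cold mice at 4 to 6 °C for 3 days.

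White adipocytes store fat and release adiponectin, leptin and resistin, which reach the liver, the brain and other organs through the blood. Thermogenic adipocytes, brown or beige, burn fuel through UCP1 when noradrenaline raises cAMP and activates PKA. They also release factors, called batokines, that act on nerves, blood vessels, the liver or immune cells. HIF2α is a transcription factor subunit that is stabilized when oxygen is low and binds hypoxia response elements, and Apln is known as a gene that responds to hypoxia.

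On GRCm38, Adipoq lies at chr16:23146536-23158028, Lep at chr6:29060220-29073877, Retn at chr8:3655770-3660110, Apln at chrX:48025146-48034853 and Nrg4 at chr9:55220222-55326844. Fgf21 lies at chr7:45613886-45615490, Metrnl at chr11:121701544-121716306, Bmp8b at chr4:123105165-123132099 and Gdf15 at chr8:70629393-70632456.

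The promoter sequences are shown for 4 genes that rose upon cold in both genotypes, so that the motifs near their starts can be compared. Each is the 250 bases before the RefSeq start on GRCm38.p6, printed 5′ to 3′ on the gene's strand, from chr4:123104911-123105160 (plus) for Bmp8b, chr7:45615491-45615740 (minus) for Fgf21, chr9:55283626-55283875 (minus) for Nrg4 and chrX:48034854-48035103 (minus) for Apln. Capitals mark the letters searched on both strands, ACGTG and GCGTG, the core of hypoxia response elements, TGACG, the cAMP response element core, and TGATGNAA, the C/EBP-ATF composite element.
Bmp8b: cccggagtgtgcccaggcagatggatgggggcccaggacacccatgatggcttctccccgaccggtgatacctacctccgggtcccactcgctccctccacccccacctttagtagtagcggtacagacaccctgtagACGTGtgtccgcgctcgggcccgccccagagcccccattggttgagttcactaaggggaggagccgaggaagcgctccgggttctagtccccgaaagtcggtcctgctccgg
Fgf21: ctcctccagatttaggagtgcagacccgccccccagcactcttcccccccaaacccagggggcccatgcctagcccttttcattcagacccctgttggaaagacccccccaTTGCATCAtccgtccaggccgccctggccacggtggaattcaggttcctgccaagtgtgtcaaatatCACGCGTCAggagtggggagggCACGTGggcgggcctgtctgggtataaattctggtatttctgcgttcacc
Nrg4: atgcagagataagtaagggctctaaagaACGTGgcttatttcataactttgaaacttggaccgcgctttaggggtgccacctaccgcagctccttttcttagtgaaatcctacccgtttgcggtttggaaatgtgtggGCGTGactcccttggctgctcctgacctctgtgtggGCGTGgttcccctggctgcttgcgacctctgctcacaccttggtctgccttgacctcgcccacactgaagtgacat
Apln: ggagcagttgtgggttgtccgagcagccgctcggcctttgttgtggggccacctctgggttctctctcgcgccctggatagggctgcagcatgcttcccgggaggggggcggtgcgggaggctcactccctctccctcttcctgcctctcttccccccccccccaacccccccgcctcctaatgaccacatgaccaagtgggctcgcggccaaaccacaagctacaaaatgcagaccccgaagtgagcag

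Within these 250 bases, Bmp8b held ACGTG once, Nrg4 held ACGTG once and GCGTG at 2 places. Fgf21 held the palindrome CACGTG, which contains ACGTG on both strands. Fgf21 also held GCGTG and TGACG on the opposite strand, which overlap by 1 base, and TGATGNAA on the opposite strand. The 250 bases of Apln held none of the 4 motifs. Over 32851 RefSeq windows, searched in the 250 bases before the start, ACGTG was present in 16.6%, GCGTG in 28.2% and either in 38.6%. TGACG was present in 17.8% and TGATGNAA in 3.45%. Of the other genes, Metrnl held GCGTG, the second of 2 starts of Gdf15 held CACGTG, and the 250 bases of Adipoq, Lep and Retn held none. A match describes letters only, and binding was not measured. The RefSeq starts of Nrg4 and Metrnl lie inside the gene as GENCODE draws it, and other starts were not searched.

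Levels are given as CPM, the counts per 1000000 counts after TMM scaling of the library sizes, as the value per mouse or as mean ± SD with n = 3 mice, and differences as log2 fold changes with SE from edgeR's quasi-likelihood test over all 12 libraries. Adjusted p-values were computed by the Benjamini-Hochberg method over the 15306 tested genes, with a limit of 0.05. The libraries held 22368316 to 35204631 counts on genes. Ucp1 was at 0.433 ± 0.222 CPM in TN WT, 1.77 ± 1.80 in TN HIF2α AKO, 2638 ± 752 in cold WT and 4696 ± 1041 in cold HIF2α AKO mice. For Epas1, which encodes HIF2α, the labelled genotypes did not show a drop, with an HIF2α AKO against WT log2 fold change of -0.05 ± 0.20 at TN and 0.40 ± 0.20 in cold. The count covers the whole gene, so reads outside the deleted part and reads of other cells are included, and the genotypes are used here as labelled. By RT-qPCR, the paper reports lower mRNA of the targeted HIFα genes in iWAT of its adipocyte knockout mice. Of the 12 white adipocyte markers fixed for the tissue, all were tested, and their summed level lay between 15066 and 65023 CPM. Skeletal muscle markers summed to 2018 CPM in TN HIF2α AKO replicate 2 and 1758 CPM in cold HIF2α AKO replicate 1, against at most 133.6 CPM in the other 10 libraries. In TN WT replicate 3, epithelial markers summed to 289.7 CPM, against at most 12.66 elsewhere.

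Per kilobase of exon, the 9 genes spanned several orders of magnitude. In cold WT mice, Adipoq had the highest level at 1318 ± 511 CPM per kb, followed by Retn at 817 ± 250, Lep at 87.7 ± 36.2, Nrg4 at 16.9 ± 5.63 and Metrnl at 13.0 ± 3.32. Apln was at 4.49 ± 0.542, Fgf21 at 1.46 ± 0.746, Gdf15 at 0.575 ± 0.259 and Bmp8b at 0.444 ± 0.290 CPM per kb. The ranges of the 3 mice overlapped between the neighbours Adipoq and Retn, Nrg4 and Metrnl, Fgf21 and Gdf15, and Gdf15 and Bmp8b. In cold HIF2α AKO mice, Bmp8b at 1.85 ± 0.665 CPM per kb stood within the range of Fgf21 at 1.77 ± 0.633, and both were above Gdf15 at 0.615 ± 0.1497 in every mouse. At TN, Metrnl exceeded Nrg4 in every mouse of both genotypes, and Bmp8b had the lowest mean of the 9 genes, at 0.00949 ± 0.00986 CPM per kb in WT and 0.0182 ± 0.00195 in HIF2α AKO mice. The exon lengths come from a reference annotation that may differ from the one used for counting. The order of Nrg4 and Metrnl at TN depended on them, at 6075 bases for Nrg4 and 1586 for Metrnl. Without division by length, Nrg4 had the higher mean, at 29.4 ± 11.4 against 19.1 ± 2.29 CPM in TN WT mice. In TN HIF2α AKO mice the means were 39.5 ± 13.3 and 21.6 ± 1.55 CPM.

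**Figure D1:**
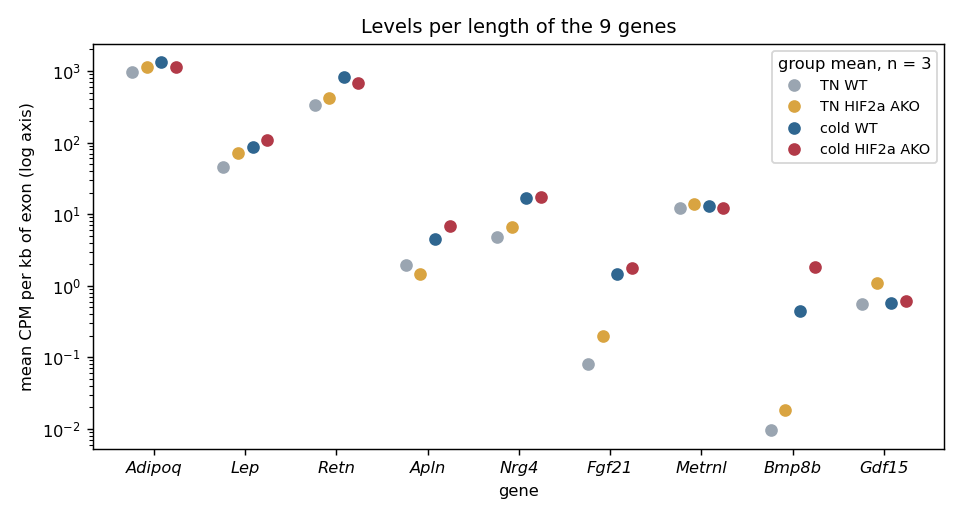
Mean level of each of the 9 genes in CPM per kb of exon on a log axis, with 1 point for each group of 3 mice. Adipoq and Retn lie highest, and Bmp8b spans the widest range, from 0.00949 in TN WT to 1.85 in cold HIF2α AKO mice.

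Upon cold, 5 of the 9 genes rose in WT iWAT, namely Bmp8b, Fgf21, Nrg4, Retn and Apln, and 0 fell. Of all tested genes, 15.6% rose and 5.68% fell in this comparison. In HIF2α AKO iWAT, 4 of the 9 rose, namely Bmp8b, Fgf21, Apln and Nrg4, and 0 fell, against 15.6% of all tested genes that rose and 11.5% that fell. The median log2 fold change over the 9 genes was 1.22 in WT and 0.69 in HIF2α AKO mice, beside medians of -0.03 and -0.05 over all tested genes. As Fgf21 and Bmp8b could pass the filter only by being high in cold, their presence among the tested genes is not independent of their rise. Adipoq, Lep, Metrnl and Gdf15 did not pass the test in either genotype.

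**Figure D2:**
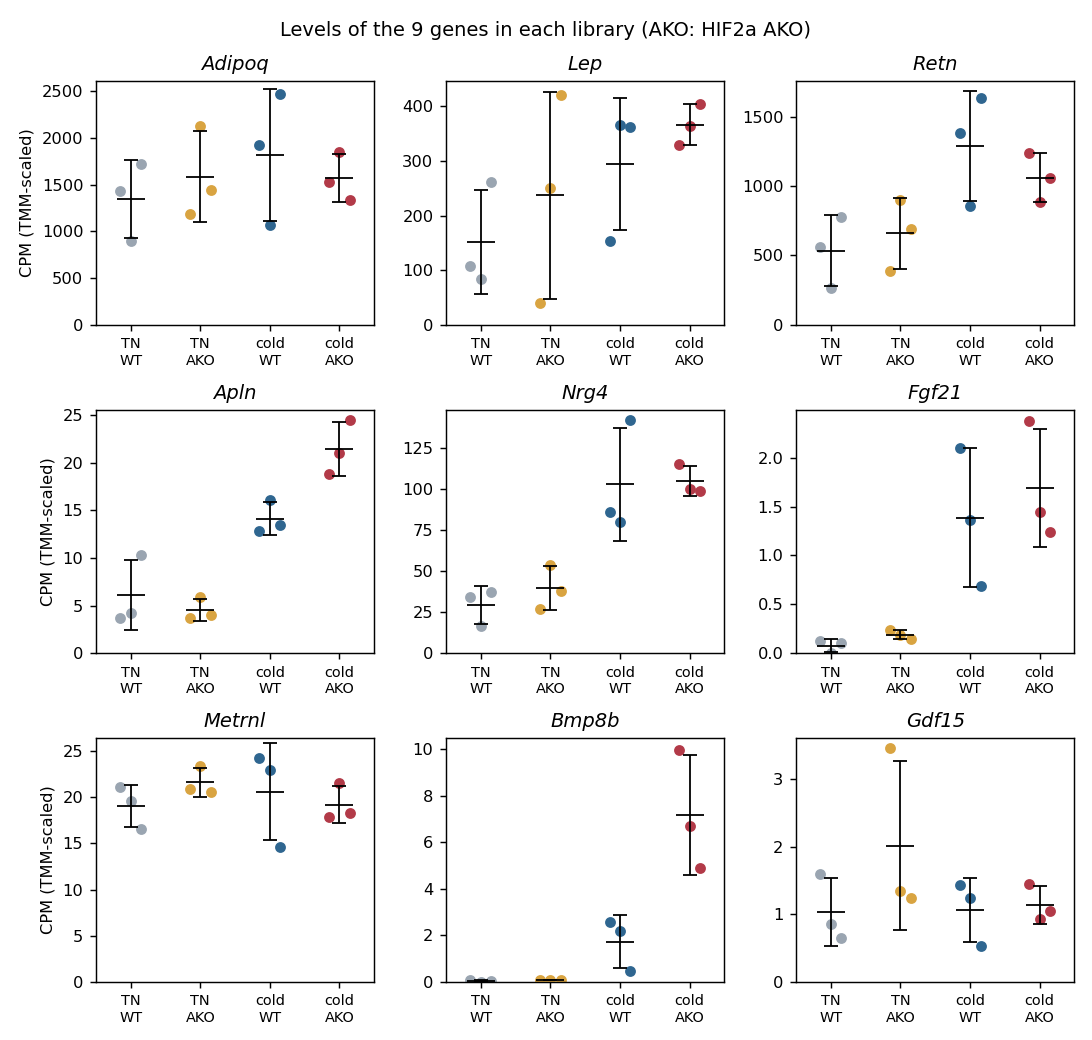
CPM of each of the 9 genes in every library, with each axis starting at 0; points are mice, and bars give the mean and SD of 3 mice. Bmp8b, Fgf21, Nrg4 and Apln lie higher in every cold library than in every TN library of the same genotype, whereas the groups of Adipoq, Lep, Metrnl and Gdf15 overlap between temperatures.

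Among the batokines, Bmp8b showed the largest rise. It encodes a bone morphogenetic protein that is known to sensitize thermogenic adipocytes to noradrenaline. In TN WT mice it was at 0.0764, 0 and 0.0341 CPM, from 3, 0 and 1 reads, and in cold WT mice at 2.55, 2.18 and 0.443 CPM, from 57, 51 and 11 reads. In TN HIF2α AKO mice it was at 0.0779, 0.0628 and 0.0707 CPM, from 2 reads in each library, and in cold HIF2α AKO mice at 9.97, 6.67 and 4.89 CPM, from 206, 166 and 122 reads. All 6 cold libraries were above all 6 TN libraries, and cold WT replicate 3 was the lowest of the cold libraries. The log2 fold change upon cold was 5.26 ± 0.79 in WT (edgeR, adjusted p = 0.00189) and 6.59 ± 0.73 in HIF2α AKO mice (edgeR, adjusted p = 0.000308). With so few reads at TN, the ratio of the summed counts is given with its exact 95% interval, which covers counting error only, and it was 41.2 (15.7 to 154) in WT and 100 (45.7 to 274) in HIF2α AKO mice. Leaving out each of the 12 libraries in turn gave log2 fold changes from 4.77 to 6.30 in WT, the highest without TN WT replicate 1 and the lowest without TN WT replicate 2, and from 6.28 to 6.80 in HIF2α AKO mice, all with adjusted p under 0.05.

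Fgf21, a hormone that raises energy expenditure and is made by the liver and by activated thermogenic fat, rose from the next lowest level. It was at 0.127, 0 and 0.102 CPM in TN WT, from 5, 0 and 3 reads, and at 2.10, 1.37 and 0.684 CPM in cold WT mice. It was at 0.234, 0.188 and 0.141 CPM in TN HIF2α AKO and at 2.37, 1.45 and 1.24 CPM in cold HIF2α AKO mice. All cold libraries again lay above all TN libraries, and the cold groups overlapped between genotypes. The log2 fold change was 4.02 ± 0.64 in WT (edgeR, adjusted p = 0.00233) and 3.14 ± 0.58 in HIF2α AKO mice (edgeR, adjusted p = 0.00379). The ratio of summed counts was 16.6 (exact 95% counting interval 8.10 to 39.6) in WT and 8.83 (5.21 to 16) in HIF2α AKO mice. Without both libraries with skeletal muscle transcripts, a setting chosen after the data were seen, the log2 fold change in HIF2α AKO mice was 2.82 (edgeR, adjusted p = 0.0460).

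Nrg4, an epidermal growth factor family ligand that is enriched in brown fat and acts on liver ERBB receptors, was more abundant. It was at 34.4, 16.4 and 37.5 CPM in TN WT and at 86.1, 80.1 and 142 CPM in cold WT mice. It was at 27.2, 53.6 and 37.6 CPM in TN HIF2α AKO and at 115, 99.8 and 98.8 CPM in cold HIF2α AKO mice. The lowest value was in TN WT replicate 2 and the highest in cold WT replicate 3, and cold and TN libraries did not overlap in either genotype. Nrg4 rose with a log2 fold change of 1.80 ± 0.34 in WT (edgeR, adjusted p = 0.00477) and 1.41 ± 0.33 in HIF2α AKO mice (edgeR, adjusted p = 0.0126). Without TN HIF2α AKO replicate 1, the value in HIF2α AKO mice was 1.196 and the adjusted p was 0.0561 in edgeR. Exons of Nrg4 share 368 bases with Fbxo22 and 177 bases with the pseudogene Gm15625 on the opposite strand, and exons of Bmp8b share 133 bases with Ppie and 339 bases with Gm17244 on the opposite strand. The strand setting of the counting is not given in the sources used here. Bmp8a, the near copy of Bmp8b, was at 1.33 ± 0.763 CPM in TN WT and 1.25 ± 0.388 in cold WT mice, and at 1.33 ± 0.146 and 1.31 ± 0.330 in TN and cold HIF2α AKO mice. How reads were split between the copies was not tested.

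Metrnl, a secreted factor of fat and muscle that acts on immune cells, was the steadiest of the 9 genes. It lay between 16.6 and 21.1 CPM in TN WT, 20.6 and 23.4 in TN HIF2α AKO, 14.6 and 24.3 in cold WT, and 17.8 and 21.6 in cold HIF2α AKO mice. Each pair of groups overlapped. Its log2 fold change upon cold was 0.11 ± 0.18 in WT (edgeR, adjusted p = 0.662) and -0.17 ± 0.18 in HIF2α AKO mice (edgeR, adjusted p = 0.481). The within-group SD of log2 CPM was 0.238 for Metrnl, against a median of 0.221 over all tested genes and 0.452 to 1.05 for the other 8 genes.

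Apln encodes apelin, a peptide that promotes vessel growth and acts through the receptor APLNR. It was at 3.67, 4.25 and 10.3 CPM in TN WT and at 12.8, 16.1 and 13.5 CPM in cold WT mice. It was at 3.74, 5.87 and 3.99 CPM in TN HIF2α AKO and at 18.8, 21.0 and 24.5 CPM in cold HIF2α AKO mice. TN WT replicate 3 was the highest TN library, and all cold libraries lay above it. Apln rose with a log2 fold change of 1.22 ± 0.34 in WT (edgeR, adjusted p = 0.0276) and 2.24 ± 0.35 in HIF2α AKO mice (edgeR, adjusted p = 0.00151). The WT call was lost without TN WT replicate 1, TN WT replicate 2, cold WT replicate 2 or cold WT replicate 3, with edgeR's adjusted p between 0.0583 and 0.105, and without TN WT replicate 3 the log2 fold change was 1.84. In HIF2α AKO mice the log2 fold change lay between 2.12 and 2.47 with any library left out.

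Retn encodes resistin, which in mice is made by adipocytes and lowers insulin action. It was at 563, 266 and 776 CPM in TN WT and at 1379, 858 and 1633 CPM in cold WT mice. It was at 391, 899 and 688 CPM in TN HIF2α AKO and at 1239, 887 and 1054 CPM in cold HIF2α AKO mice. Cold and TN libraries did not overlap in WT but did in HIF2α AKO mice, where TN replicate 2 was above cold replicate 2. The log2 fold change was 1.27 ± 0.40 in WT (edgeR, adjusted p = 0.0447) and 0.69 ± 0.40 in HIF2α AKO mice (edgeR, adjusted p = 0.205). The WT call was close to the limit and was lost in 12 of 20 alternatives. Among them were 8 of the 12 fits with a library left out, those without TN WT replicate 1 or 2, cold WT replicate 1 or 3, TN HIF2α AKO replicate 3, or any cold HIF2α AKO replicate, where edgeR's adjusted p was between 0.0545 and 0.154.

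Adipoq encodes adiponectin, the most abundant hormone of adipocytes, and it had the highest mean level per kilobase of the 9 genes in every group. It was at 1429, 899 and 1720 CPM in TN WT and at 1924, 1068 and 2467 CPM in cold WT mice. It was at 1182, 2122 and 1443 CPM in TN HIF2α AKO and at 1530, 1847 and 1334 CPM in cold HIF2α AKO mice. The 4 groups overlapped. Upon cold its log2 fold change was 0.43 ± 0.34 in WT (edgeR, adjusted p = 0.352) and -0.01 ± 0.34 in HIF2α AKO mice (edgeR, adjusted p = 0.985). The regulatory sequence of Adipoq drives Cre in the HIF2α AKO mice. Among the 6 tested genes beside it, Eif4a2 was at 641 ± 54.0 CPM in TN HIF2α AKO against 454.5 ± 24.4 in TN WT mice, and at 514 ± 25.8 in cold HIF2α AKO against 347.5 ± 7.15 in cold WT mice, without overlap at either temperature. For the others in cold, the HIF2α AKO against WT log2 fold change was 8.865 ± 0.959 for Kng1, which had 0 counts in WT. It was 2.36 ± 0.41 for Kng2, 0.53 ± 0.19 for Rfc4, 0.13 ± 0.27 for Igf2bp2 and -0.12 ± 0.20 for St6gal1. None of these passed the adjusted test. Eif4a2 did not pass the adjusted test between genotypes (edgeR, adjusted p = 0.9995 at TN and 0.580 in cold), and its part, or that of Cre, in the counts of Adipoq was not tested.

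Lep encodes leptin, the satiety hormone, and was the most variable of the 9 genes, with a within-group SD of 1.05 on the log2 scale. It was at 108.5, 84.7 and 261 CPM in TN WT and at 154, 366 and 362 CPM in cold WT mice. It was at 40.6, 250.4 and 420.2 CPM in TN HIF2α AKO and at 330.1, 364 and 405 CPM in cold HIF2α AKO mice. TN HIF2α AKO replicate 1 was the lowest and replicate 3 of the same group the highest of the 12 libraries, so the groups overlapped. Upon cold the log2 fold change was 0.96 ± 0.67 in WT (edgeR, adjusted p = 0.301) and 0.63 ± 0.67 in HIF2α AKO mice (edgeR, adjusted p = 0.491). Gdf15, a stress hormone that acts on the hindbrain receptor GFRAL, stayed near 1 CPM in most libraries. It was at 1.60, 0.857 and 0.648 CPM in TN WT, 3.47, 1.35 and 1.24 in TN HIF2α AKO, 1.43, 1.24 and 0.523 in cold WT, and 1.45, 0.925 and 1.04 in cold HIF2α AKO mice. TN HIF2α AKO replicate 1 was the highest library, and the groups overlapped. For Gdf15 the log2 fold change upon cold was 0.02 ± 0.51 in WT (edgeR, adjusted p = 0.984) and -0.82 ± 0.50 in HIF2α AKO mice (edgeR, adjusted p = 0.229).

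**Figure D3:**
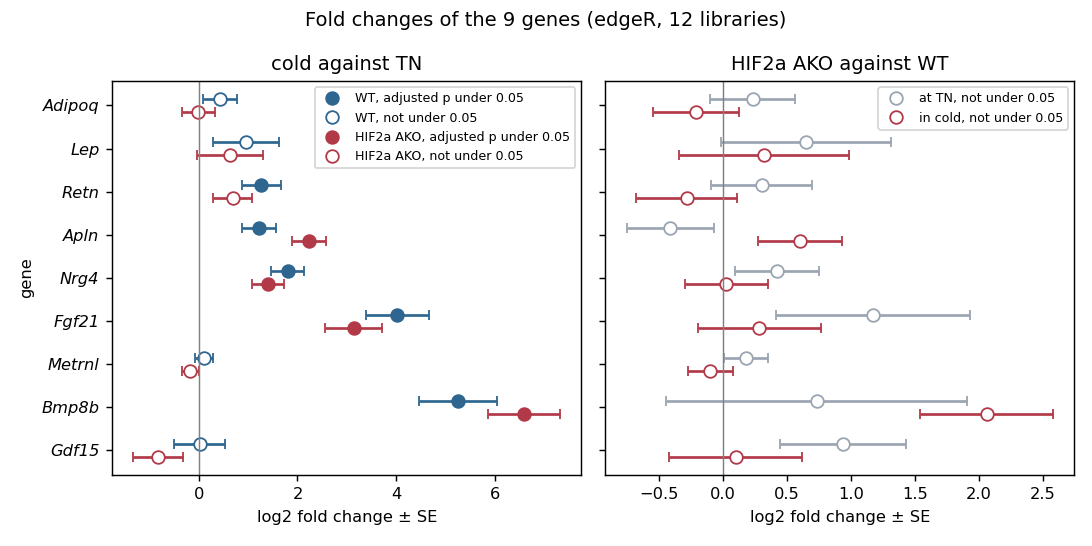
Log2 fold changes of the 9 genes with SE, for cold against TN in each genotype on the left and for HIF2α AKO against WT at each temperature on the right; filled points have an adjusted p under 0.05. The filled points are 5 genes in WT and 4 in HIF2α AKO mice for cold, and 0 genes for genotype.

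The levels of Adipoq, Retn and Nrg4 were compared by library with the summed level of the 12 white adipocyte markers, such as Plin1, Lipe and Fabp4. The sum was lowest in TN WT replicate 2, at 15066 CPM, where Adipoq, Retn and Nrg4 were also lowest, and highest in cold WT replicate 3, at 65023 CPM, where the same 3 genes were highest. By group, the sum ranged from 15066 to 31379 CPM in TN WT, 23288 to 37394 in TN HIF2α AKO, 34728 to 65023 in cold WT and 41763 to 50731 in cold HIF2α AKO mice. In HIF2α AKO mice the sum was thus higher in every cold library than in every TN library, but Adipoq did not follow it. Its log2 fold change there was -0.01 ± 0.34. At 2122 CPM, Adipoq in TN HIF2α AKO replicate 2 was above all cold HIF2α AKO libraries, which reached at most 1847 CPM. Of these markers, 4 of 12 rose upon cold in WT and 3 of 12 in HIF2α AKO mice. In whole tissue, more adipocyte RNA per cell and more adipocytes cannot be told apart. Progenitor and stromal markers summed to between 5419 and 7114 CPM at TN and between 3450 and 4679 CPM in cold, and lymphocyte markers to between 1301 and 2155 CPM at TN and between 781.5 and 1391 CPM in cold. Upon cold, 2 of 10 progenitor and stromal markers fell in WT and 5 in HIF2α AKO mice, 1 and 2 of 12 lymphocyte markers fell, and 0 and 3 of 13 macrophage markers fell. Of 10 endothelial markers 0 rose in WT and 1 in HIF2α AKO mice, and of 9 tested epithelial markers 1 fell and 0 fell. Of 12 skeletal muscle markers 0 passed the test, but their SE were wide, from 0.54 to 3.17 in WT, so changes could be missed. Of 8 thermogenic adipocyte markers 7 rose in WT and 8 in HIF2α AKO mice. All these marker counts stand beside the shares over all tested genes given above. The part of these cell types in the values of the 9 genes was not tested.

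When libraries were scaled to the white adipocyte markers in place of TMM, a setting chosen after the data were seen, the median log2 fold change of all tested genes upon cold moved to -1.09 in WT and -0.76 in HIF2α AKO mice. Of all tested genes, 298 then rose and 10272 fell in WT and 205 rose and 86 fell in HIF2α AKO mice, against 2389 and 870, and 2381 and 1757, with TMM. On that scale Bmp8b was at 4.57 in WT and 5.90 in HIF2α AKO mice, Fgf21 at 3.27 and 2.43, and Nrg4 at 0.84 and 0.76. In HIF2α AKO mice, edgeR's adjusted p was then 0.0556 for Fgf21 and 0.0628 for Nrg4. Retn was at 0.34 and 0.05, and Apln at 0.34 and 1.60. The adjusted p of Retn was 0.237 in WT and that of Apln 0.411, whereas Apln in HIF2α AKO mice had 0.0422 and Bmp8b 0.00920 and 0.000409 in edgeR. Adipoq was at -0.60 in WT (edgeR, adjusted p = 0.0322), the opposite sign to the TMM scale. Metrnl also changed sign in WT, to -0.92 (edgeR, adjusted p = 0.0487).

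**Figure D4:**
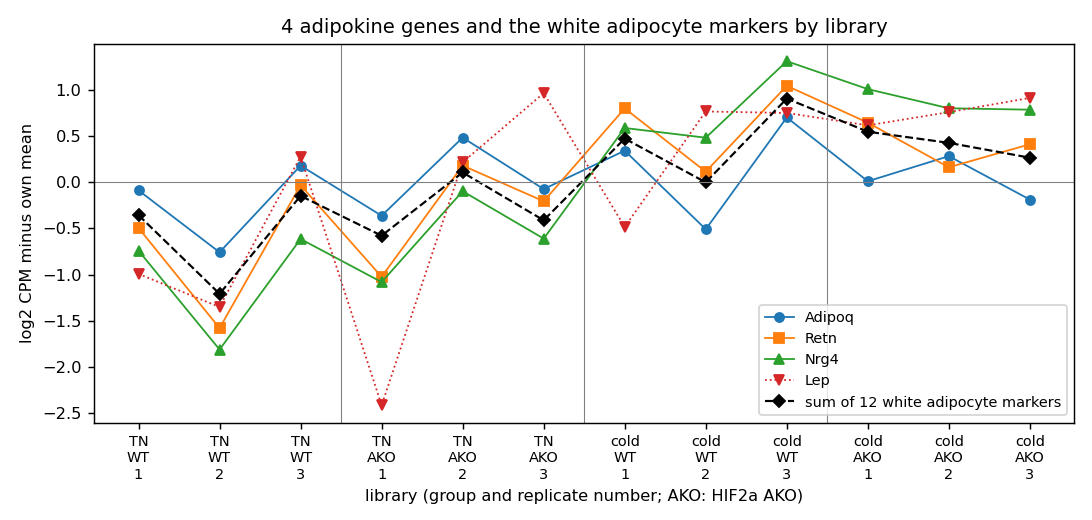
Log2 CPM of Adipoq, Retn, Nrg4 and Lep in each of the 12 libraries, each minus its own mean, with the summed level of 12 white adipocyte markers as a dashed line. TN WT replicate 2 is lowest and cold WT replicate 3 highest for the markers and for Adipoq, Retn and Nrg4, whereas Lep is lowest in TN HIF2α AKO replicate 1.

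Whether the loss of HIF2α in adipocytes changed these genes was asked at each temperature. At TN, 0 of the 9 genes passed the adjusted test, as did 0.00653% of all tested genes, and 0 of the 9 had an unadjusted p under 0.05, beside 2.91% of all tested genes. In cold, 0 of the 9 passed the adjusted test, as did 0.00653% of all tested genes. There 1 of the 9, Bmp8b, had an unadjusted p under 0.05, beside 2.95% of all tested genes. Bmp8b passed the filter on low counts with the help of the cold HIF2α AKO group, so this count is not independent of genotype. DESeq2 on all libraries also called 0 of the 9 at each temperature, but at TN it gave no adjusted p for Fgf21, Bmp8b and Gdf15. The median log2 fold change of the 9 genes was 0.42 at TN and 0.10 in cold, beside 0.01 and -0.02 over all tested genes.

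Bmp8b was higher in every cold HIF2α AKO library, at 4.89 to 9.97 CPM, than in every cold WT library, at 0.443 to 2.55 CPM. The log2 fold change was 2.06 ± 0.52, with an unadjusted p of 0.00219 and an adjusted p of 0.9999 in edgeR. This p ranked the gene 15th among the tested genes. Bmp8b was over the cut of the filter in 2 cold WT, 3 cold HIF2α AKO and 0 TN libraries. In the fit of the WT groups alone, the filter did not keep it. Its place among the tested genes thus leaned on the group with the higher level, so p and rank are not independent of it. The ratio of summed counts was 4.16 with an exact 95% counting interval of 3.40 to 5.12. The difference was 1.60 without cold WT replicate 3, the lowest library, 1.75 without cold HIF2α AKO replicate 1 and 2.45 without cold WT replicate 1, and it was 1.87 on the scale of the white adipocyte markers. Summed thermogenic adipocyte markers were at 5622 to 8582 CPM in cold HIF2α AKO and 3350 to 4864 CPM in cold WT mice, and their part in the level of Bmp8b was not tested. At TN, Bmp8b had 6 reads in HIF2α AKO and 4 reads in WT mice in all, so a difference was not detectable at this depth.

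Apln was also higher in every cold HIF2α AKO library, from 18.8 to 24.5 CPM, than in every cold WT library, from 12.8 to 16.1 CPM. Its log2 fold change was 0.60 ± 0.33, with an unadjusted p of 0.0950 and an adjusted p of 0.9999 in edgeR. Apln and Bmp8b were thus 2 of the 9 genes without overlap between the genotypes in cold, beside 7.53% of all tested genes. The limit from the filter given for Bmp8b holds for this count too. At TN, Apln went the other way at -0.41 ± 0.34 (edgeR, adjusted p = 0.9995), but without TN WT replicate 3 the value was 0.20. Fgf21 was the only gene of the 9 without overlap at TN, beside 7.69% of all tested genes, with 0.141 to 0.234 CPM in HIF2α AKO and 0 to 0.127 CPM in WT mice. Its summed counts of 16 and 8 reads gave a ratio of 2.28 with an exact 95% counting interval of 0.920 to 6.15, which includes equality. In cold its log2 fold change between genotypes was 0.28 ± 0.48 (edgeR, adjusted p = 0.9999).

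Gdf15 had a log2 fold change of 0.93 ± 0.49 at TN (edgeR, unadjusted p = 0.0844 and adjusted p = 0.9995), which became 0.31 without TN HIF2α AKO replicate 1. Lep was at 0.65 ± 0.67 at TN and 0.32 ± 0.66 in cold, and Nrg4 at 0.42 ± 0.33 and 0.03 ± 0.32. Retn was at 0.30 ± 0.39 at TN and -0.28 ± 0.39 in cold, Adipoq at 0.23 ± 0.34 and -0.21 ± 0.34, and Metrnl at 0.18 ± 0.18 and -0.10 ± 0.18. The groups of these 6 genes overlapped at both temperatures.

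Whether the response to cold differed between genotypes was tested by the interaction of genotype and temperature. Of the 9 genes, 0 passed the adjusted test, as did 0% of all tested genes, and 0 had an unadjusted p under 0.05, beside 2.14% or 327 of all tested genes. DESeq2 likewise called 0 genes. The largest positive interactions were those of Bmp8b at 1.33 ± 1.48 and Apln at 1.01 ± 0.48 (edgeR, unadjusted p = 0.0563 for Apln). The other 7 genes were below 0, from -0.89 ± 0.89 for Fgf21 to -0.28 ± 0.25 for Metrnl. The rise of Retn passed the test in WT and not in HIF2α AKO mice, but its interaction was -0.58 ± 0.56 (edgeR, unadjusted p = 0.317 and adjusted p = 1), so a difference between the genotypes was not shown.

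Receptors of the 9 proteins were compared next, since iWAT cells can also respond to what they secrete. Of 21 receptors and co-receptors in the table, 20 were tested and Gfral was not, and 3 rose and 1 fell upon cold in each genotype, close to the background shares above. Klb, the co-receptor of FGF21, was at 115.6 ± 54.5 CPM in cold against 47.2 ± 16.9 CPM at TN in WT, a rise of 1.29 ± 0.37 (edgeR, adjusted p = 0.0317). In HIF2α AKO mice Klb was at 100.7 ± 16.1 against 63.4 ± 19.2 CPM, with 0.67 ± 0.37 (edgeR, adjusted p = 0.182). Fgfr1, its partner receptor kinase, was at 0.03 ± 0.19 in WT and -0.17 ± 0.19 in HIF2α AKO mice.

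The adiponectin receptor gene Adipor1 rose by 0.39 ± 0.10 in WT (edgeR, adjusted p = 0.0195) and 0.38 ± 0.10 in HIF2α AKO mice (edgeR, adjusted p = 0.0184). Adipor2 was at 0.72 ± 0.24 in WT (edgeR, adjusted p = 0.0572) and rose by 0.88 ± 0.25 in HIF2α AKO mice (edgeR, adjusted p = 0.0242). Cdh13, which encodes T-cadherin, the binding protein of adiponectin, rose by 0.61 ± 0.18 in WT and 0.86 ± 0.18 in HIF2α AKO mice (edgeR, adjusted p = 0.0373 and 0.00763). Tlr4, listed for resistin, fell by 0.47 on the log2 scale in each genotype (edgeR, adjusted p = 0.0201 and 0.0175), and Cap1, also listed for resistin, was at -0.22 ± 0.14 and -0.29 ± 0.14. Lepr was at -0.07 ± 0.47 and -0.42 ± 0.47.

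Aplnr, the apelin receptor gene, was at -0.51 ± 0.31 in WT and 0.44 ± 0.31 in HIF2α AKO mice. For Nrg4, Erbb4 was at 0.230 to 0.451 CPM on average in the 4 groups, and Erbb3 at -1.03 ± 0.38 in WT (edgeR, adjusted p = 0.0720) and 0.22 ± 0.38 in HIF2α AKO mice. For Bmp8b, the tested receptors Bmpr1a, Bmpr1b, Bmpr2, Acvr1, Acvr1c, Acvr2a and Acvr2b did not pass the test, and Bmpr1a was at 0.27 ± 0.23 and 0.50 ± 0.23. Kit, listed for Metrnl, was at -0.54 ± 0.20 (edgeR, adjusted p = 0.0800) and -0.18 ± 0.20, and Ret, the co-receptor of GFRAL, at 0.25 ± 0.29 and 0.36 ± 0.29. Between genotypes, 0 of the 20 passed the test at either temperature.

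**Figure D5:**
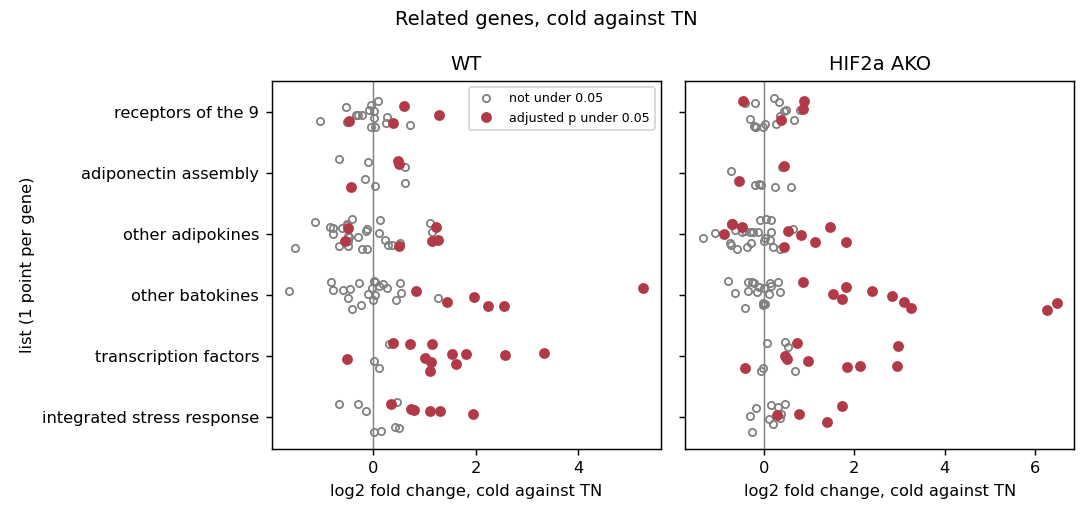
Log2 fold change of cold against TN for each tested gene of 6 related lists, in WT on the left and in HIF2α AKO mice on the right; filled points have an adjusted p under 0.05. Most transcription factor genes lie above 0 in both panels, and the other batokines reach the highest values.

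Other secreted factors and the genes around the 9 were read the same way. Of 28 tested genes for other batokines and thermogenic secreted factors, 6 rose in WT and 10 in HIF2α AKO mice upon cold and 0 fell, with medians of 0.04 and 0.13. Among all tested genes, 15.6% rose in each genotype, and 5.68% fell in WT and 11.5% in HIF2α AKO mice. Kng2, a kininogen gene, was at 0.125 ± 0.0710 CPM in TN WT, 4.93 ± 2.13 in cold WT, 0.277 ± 0.136 in TN HIF2α AKO and 25.4 ± 12.5 in cold HIF2α AKO mice. Kng1 was listed with 0 counts in all WT mice and at 2.16 ± 1.08 CPM in cold HIF2α AKO mice, and both genes lie beside Adipoq. Of the 6 tested genes beside Adipoq, 1 rose and 2 fell upon cold in WT and 2 rose and 2 fell in HIF2α AKO mice, the falls being those of Eif4a2, by 0.39 and 0.32 on the log2 scale, and St6gal1, a sialyltransferase gene, by 0.63 and 0.62. Fndc5, the irisin precursor gene, rose by 2.56 ± 0.42 in WT and 3.27 ± 0.43 in HIF2α AKO mice (edgeR, adjusted p = 0.00274 and 0.000583), and Fgf9, a growth factor gene, rose by 2.23 ± 0.40 in WT and 3.10 ± 0.40 in HIF2α AKO mice (edgeR, adjusted p = 0.00389 and 0.000554).

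Of 33 tested other adipokines, 4 rose and 2 fell in WT and 6 rose and 4 fell in HIF2α AKO mice, with medians of -0.29 and -0.14. These counts are close to the shares over all tested genes, of which 15.6% rose and 5.68% fell in WT and 15.6% rose and 11.5% fell in HIF2α AKO mice. C1qtnf4 rose by 1.26 ± 0.39 and 1.82 ± 0.39, and Fam132a, which encodes the adipokine adipolin, by 1.23 ± 0.31 and 1.14 ± 0.31. Nampt, an enzyme of NAD synthesis that is also secreted, rose by 1.15 ± 0.23 in WT and 0.83 ± 0.23 in HIF2α AKO mice. Fbn1, the precursor of asprosin, fell by 0.55 in WT and by 0.88 in HIF2α AKO mice on the log2 scale. C1qtnf6 fell by 0.48 on the log2 scale in each genotype. Dpp4 fell by 0.69 in HIF2α AKO mice and was at -0.41 ± 0.19 in WT (edgeR, adjusted p = 0.141).

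Of 9 genes for the assembly and secretion of adiponectin, 2 rose and 1 fell in WT and 1 rose and 1 fell in HIF2α AKO mice. Ero1l, an oxidase of the endoplasmic reticulum, rose by 0.51 ± 0.12 and 0.44 ± 0.12, Plod1, a lysyl hydroxylase gene, rose by 0.49 ± 0.14 in WT and was at 0.26 ± 0.14 in HIF2α AKO mice (edgeR, adjusted p = 0.167), and Sirt1, a deacetylase gene, fell by 0.43 in WT and 0.54 in HIF2α AKO mice. Of 15 transcription factors listed for the promoters of the 9 genes, 11 rose and 1 fell in WT and 8 rose and 1 fell in HIF2α AKO mice, with medians of 1.12 and 0.54. Beside these lists, 15.6% of all tested genes rose in each genotype, and 5.68% fell in WT and 11.5% in HIF2α AKO mice. Ppara, a known activator of Fgf21, rose by 3.33 ± 0.48 and 2.98 ± 0.47, Ppargc1a, the coactivator of mitochondrial genes, by 2.56 ± 0.34 and 2.95 ± 0.34, and Cebpb by 1.81 ± 0.30 and 2.13 ± 0.31. Creb1, the cAMP response factor, fell by 0.50 and 0.42.

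Of 14 genes of the integrated stress response, the pathway known to drive Fgf21 and Gdf15 through ATF4, 6 rose in WT and 4 in HIF2α AKO mice and 0 fell. The share of all tested genes that rose was 15.6% in each genotype, and 5.68% fell in WT and 11.5% in HIF2α AKO mice. Asns, asparagine synthetase, rose by 1.95 ± 0.32 in WT and 1.39 ± 0.31 in HIF2α AKO mice, Atf5 by 1.31 ± 0.29 and 1.73 ± 0.29, and Trib3, a pseudokinase gene, by 1.11 ± 0.24 and 0.77 ± 0.24. Gdf15 did not pass the test beside them, as given above. Between genotypes, and for the interaction, 0 genes of these lists passed the adjusted test.

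For each of the 9 genes, the genes with the most similar pattern were found among 13889 tested genes with a mean of at least 1 CPM. Likeness was the root-mean-square difference of log2 CPM over the 12 libraries, after each gene was centred on its own mean, and it describes these libraries only. Adipoq was nearest to Slc22a4, a transporter gene, at 0.0718 log2 units, followed by Sqrdl at 0.134 and Trf at 0.142, beside its own spread of 0.404. Nrg4 was nearest to Tmem120a at 0.105, Pmm1 at 0.117 and Nat8l at 0.120, beside a spread of 0.924. Retn was nearest to Mogat1 at 0.147, Pex11a at 0.162 and Fah at 0.169, beside 0.718. Metrnl was nearest to Rab31 at 0.0771, Ralgds at 0.103 and Hs6st1 at 0.109, beside 0.207.

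For the other genes the root-mean-square differences were at least 0.310. Apln was nearest to Slc16a1, a lactate transporter gene, at 0.310, followed by Fuom and Fahd1, beside a spread of 1.00. Lep was nearest to Myom3 at 0.390, followed by Pnpla3 and Rcor2, beside 1.03. Fgf21 was nearest to Tmem37 at 0.449, followed by Acot4 and Tuba8, beside 1.61, and Bmp8b to Kng2 at 0.578, followed by Phospho1 and Sgk2, beside 2.55. In the TN libraries, Fgf21 had only 0 to 6 reads and Bmp8b 0 to 3 reads. Their log2 values there thus depend much on the prior count of 2, which limits these 2 likenesses. Gdf15 was nearest to Slc40a1, the iron exporter gene, at 0.367, followed by Nlgn3 and Impg2, beside 0.627.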

How the data were processed

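For 12 libraries of mouse iWAT, the authors deposited unnormalized HTSeq counts. Per the study's methods and the submitters' processing notes, reads were trimmed with Trim Galore 0.4.4, aligned with STAR 2.6.1d to GRCm38 and counted with HTSeq 0.13.5, and DESeq2 1.30.0 was named. The annotation and strand setting are not given in the sources used here. Groups follow the labels. The 5 tally rows that name no gene, 21.9 to 27.0% of the reads listed, were left out, and the per-sample tables equalled the series table for all 12 libraries. No source used here ties same-numbered replicates of different groups.

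Counts were fitted with edgeR 4.0.16 in R 4.3.3, with filterByExpr at a minimum count of 10 and total of 15, TMM scaling, a mean for each of 4 groups and quasi-likelihood tests, which had been tested on simulated data. DESeq2 1.42.0 was an alternative, as were other scalings, filters, samples, thresholds and each library left out. Log2 CPM used a prior count of 2. A count of 0 allows up to 3 counts. Lengths and positions came from GENCODE M21 and promoters from RefSeq, both on GRCm38, and all 9 genes matched each.

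All 9 genes were named in full. In each related list, the names were limited to the 3 strongest called rises and the 3 strongest called falls per genotype upon cold, with the receptors, Epas1, Ucp1 and Eif4a2, and 3 nearest patterns per gene. Some genes that this rule names are not reported here. Bmp8a, Kng1 in WT, Rfc4 and Igf2bp2 were named after their values were seen, as were the genotype values of Kng1, Kng2 and St6gal1. The 9 genes and all lists were chosen with earlier results of these data known. Marker lists covered white and thermogenic adipocytes, skeletal muscle, macrophages, lymphocytes, epithelium, endothelium, and progenitors and stroma.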

Additional observations from a re-analysis of the deposited data

How the results depend on the processing

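Over all comparisons of the 9 genes and all alternatives, 813 values kept their direction and side of the limit, 21 lost the call, 1 gained it with its sign kept and 44 changed sign, of which 2, Adipoq and Metrnl in WT cold with adipocyte marker scaling, also passed the limit. The rises of Bmp8b in both genotypes, Fgf21 and Nrg4 in WT and Apln in HIF2α AKO mice passed the test in every alternative that gave an adjusted p. The cause of the other changes was not tested.

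Of 18 pairs of same-numbered libraries, 5 correlated over 0.1 (range -0.43 to 0.39). Pairs with different numbers were not compared, so this cannot decide whether replicate numbers pair the mice. With the replicate block, 4 and 4 genes were called upon cold, Retn in WT had 1.30 (adjusted p = 0.0545), and the interaction of Lep was 0.0431. With the thresholds of the study's methods (p under 0.15, absolute log2 fold change over 0.2), 8029 and 8352 genes passed upon cold, 1321 at TN with 1 of the 9, 1374 in cold with 2, and 1349 for the interaction with 1. DESeq2 on all libraries called 9 genes at TN and 7 in cold. On the groups compared, DESeq2 called 11 and 13, and Retn in HIF2α AKO mice (0.71, adjusted p = 0.0427). There edgeR called 0 and 0, and 1752 in WT cold with 2 of the 9, where Retn (adjusted p = 0.0909) and Apln (0.0864) missed the limit and Bmp8b was not tested, as the filter did not keep it.

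Adipoq upon cold in HIF2α AKO mice became 0.0112 with DESeq2 size factors, with every counted gene or with DESeq2 on all libraries, 0.0131 with DESeq2 on 2 groups and 0.0108 with edgeR on 2 groups. Gdf15 in WT became -0.0240 with every counted gene. Without both muscle-transcript libraries, 1514 genes were called in HIF2α AKO cold, Adipoq was 0.28 there and -0.0391 at TN, and the cold genotype values were -0.0497 for Nrg4, -0.0368 for Fgf21 and -0.11 for Gdf15. With adipocyte marker scaling, 10570 and 291 genes were called upon cold, with 5 and 2 of the 9, and 0 at TN. In WT cold, Adipoq was -0.60 and Metrnl and Gdf15 each -0.92. Between genotypes, Adipoq was -0.0932 and Metrnl -0.24 at TN and Gdf15 -0.0201 in cold, and the interaction of Metrnl was 0.0402.

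With 1 library left out, 1381 (without TN WT replicate 2) to 3722 genes were called in WT cold, with 3 to 5 of the 9, and 1613 (without cold HIF2α AKO replicate 1) to 4853 in HIF2α AKO cold, with 3 to 4. Only 3 of the 9 were called in WT without TN WT replicate 1 or 2 or cold WT replicate 3. Signs changed for Metrnl (-0.0237 to 0.31) and Gdf15 (-0.25 to 0.49) in WT cold and Adipoq (-0.18 to 0.26) in HIF2α AKO cold. At TN the genotype values were -0.0389 to 0.44 for Adipoq, -0.0563 to 1.30 for Lep, -0.0234 to 0.67 for Retn and -0.68 to 0.20 for Apln. In cold they were -0.45 to 0.0699 for Adipoq, -0.10 to 0.33 for Nrg4, -0.0455 to 0.71 for Fgf21, -0.30 to 0.0341 for Metrnl and -0.23 to 0.37 for Gdf15. The interaction of Lep was -0.98 to 0.37. Fgf21 at 8 and 16 and Bmp8b at 4 and 6 reads in all at TN limit what depth can show of them there.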
